A study of Caenorhabditis elegans with 2 samples.

Results

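The 300 strongest candidate regions on the X chromosome were taken from a list of 30000 regions that the authors called on both replicates together in a chromatin immunoprecipitation experiment (ChIP-seq) in Caenorhabditis elegans. The list held 5276 regions on X. The 300 were selected on the authors' signal value in descending order, taken here to be the peak caller's score for a region, since its exact definition is not given in the sources used here, so their height is not a finding. Their signal ran from 14.63 to 90.83 with a median of 16.8, and in the whole list they stood between rank 28 and rank 1680. They were compared with the 4976 other X regions and with 1350 autosomal regions whose signal was at or above that of the weakest of the 300, called strong autosomal regions below. The best rank among the strong autosomal regions was 29, and 29970 of the 30000 regions were nuclear. The regions above rank 28 were thus not on nuclear chromosomes. A shorter list of 137 reproducible peaks, 25 of them on X, passed the authors' reproducibility threshold (irreproducible discovery rate, IDR). Of the 300 regions, 26 overlapped such a peak and 274 did not, so most but not all of them lie beyond that threshold. The same overlap held for 0.477% of the whole pooled list and 0.531% of its X regions, and nothing is read from that difference because the reproducible list was itself made from the pooled list.

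The experiment used 1 group, strain OP373, genotype unc-119(tm4063) III; wgIs373, a transgene insertion that carries eGFP-tagged nhr-67. The 2 biological replicates were whole L3 larvae, with males and the other sex pooled, so signal from rare cells and from common ones is mixed. The antibody is labelled by the name of the tagged protein, and the labelled fragment size was 150 to 350 bp. The deposited records derive both replicates' lists with the same 1 further file, taken here to be a shared control because the control-normalized tracks use it too, and it was not analysed here. There was no second condition. Signal from the tagged protein and signal from any other source therefore cannot be told apart. Read counts are not part of the lists, so the depth is unknown, and no test between conditions was possible.

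NHR-67 belongs to the tailless-like nuclear receptors, which are transcription factors, and acts in the anchor cell and in neurons. In C. elegans, animals with a pair of X chromosomes become hermaphrodites and animals with a single X become males. In hermaphrodites the dosage compensation complex, a condensin-like complex, binds both X chromosomes and lowers their expression. It is first recruited at recruitment elements on X (rex sites), which are known to carry clustered copies of a GC-rich motif, and then spreads along the chromosome. That complex was not measured in this experiment.

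The sequences at the summits, the positions of highest enrichment, separated the top of the ranking from the rest. The 11-letter run TCGCGCAGGGA, whose reverse complement is TCCCTGCGCGA, was joined from 4 overlapping 8-letter words that were over 20 times as frequent in the odd-ranked members as in the other X regions. Its letters match the core of the motif known from rex sites. Several windows around summits and 1 window at the edge of a region are shown because they hold this motif in different numbers and arrangements. They run 5′ to 3′ on the plus strand (RefSeq WBcel235, the ce11 build), and capitals mark every match to the 11 letters on either strand with at most 1 mismatch. The name is that of the nearest protein-coding gene start.
W02H3.3, rank 1, chrX:11094117-11094297: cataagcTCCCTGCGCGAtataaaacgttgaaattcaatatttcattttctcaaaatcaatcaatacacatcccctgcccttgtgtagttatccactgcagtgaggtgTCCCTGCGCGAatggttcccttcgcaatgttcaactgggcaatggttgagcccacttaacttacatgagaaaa
nspc-17, rank 3, chrX:14525863-14525963: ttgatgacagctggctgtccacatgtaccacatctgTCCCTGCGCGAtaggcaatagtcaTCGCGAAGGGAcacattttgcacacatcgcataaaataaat
F22H10.2, rank 5, chrX:16682037-16682187: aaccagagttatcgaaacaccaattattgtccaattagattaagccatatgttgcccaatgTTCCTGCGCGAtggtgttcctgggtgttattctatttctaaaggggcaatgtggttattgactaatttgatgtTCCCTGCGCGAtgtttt
gtr-1, rank 7, chrX:806654-806764: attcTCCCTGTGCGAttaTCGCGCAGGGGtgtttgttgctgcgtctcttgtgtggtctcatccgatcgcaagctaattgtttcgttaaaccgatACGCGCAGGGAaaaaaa
F20B6.9, rank 11, chrX:4209260-4209450: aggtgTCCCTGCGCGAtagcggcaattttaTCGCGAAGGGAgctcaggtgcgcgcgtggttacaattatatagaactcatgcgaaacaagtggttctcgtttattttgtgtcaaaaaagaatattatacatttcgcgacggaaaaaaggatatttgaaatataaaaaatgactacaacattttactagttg
col-185, rank 229, chrX:13514510-13514610: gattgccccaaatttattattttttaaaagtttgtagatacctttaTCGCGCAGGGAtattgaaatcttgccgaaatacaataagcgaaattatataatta
xol-1, rank 29, chrX:8036380-8036483: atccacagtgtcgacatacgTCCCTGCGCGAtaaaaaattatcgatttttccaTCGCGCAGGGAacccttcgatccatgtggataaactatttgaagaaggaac

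In the strongest of the X regions, near W02H3.3, both sites were exact matches on the minus strand. The region near nspc-17, which codes for a nematode-specific peptide, held an exact site and a site with 1 mismatch on opposite strands. Near gtr-1 there were 3 sites, none of them exact. The xol-1 window lies at the left edge of the member of rank 29, and its 2 exact sites, on opposite strands with starts 33 bp apart, lie just outside the region that the authors called. xol-1 is the master switch that reads the number of X chromosomes and sets sex and dosage compensation.

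Further windows are shown as contrasts, because their regions are also strong but hold no match to the 11 letters with at most 1 mismatch. Their letters are all in lower case.
T24D8.6, rank 9, chrX:2364834-2364934: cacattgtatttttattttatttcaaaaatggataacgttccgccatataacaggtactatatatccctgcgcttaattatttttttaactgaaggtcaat
bet-2, rank 18, chrX:10568971-10569071: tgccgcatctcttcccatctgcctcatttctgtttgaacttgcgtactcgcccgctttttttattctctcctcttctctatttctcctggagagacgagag
R11.4, rank 13, chrX:16209791-16209891: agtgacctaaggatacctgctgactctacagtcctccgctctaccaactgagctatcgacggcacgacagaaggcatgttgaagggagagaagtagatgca

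The region near T24D8.6 has the 6-letter word CCTGCG but not the full motif. bet-2, which codes for a bromodomain protein of the BET family, had its summit 252 bp upstream of its start. The summit near R11.4 lay 11 bp from the start of a tRNA gene.

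Within 100 bp of the summit the GC-rich motif, with at most 1 mismatch, was found in 14 of the 300 members (4.67%, exact Clopper-Pearson 95% interval 2.57 to 7.71). It was found in 4 of 4976 other X regions (0.0804%, interval 0.0219 to 0.206) and in 2 of 1350 strong autosomal regions (0.148%, interval 0.0179 to 0.534). All intervals in this text cover counting error over regions only. In the even-ranked members, which took no part in deriving the motif, it was found in 6 of 150 (4.0%, interval 1.48 to 8.50). The words of the motif were chosen for being rare in the other X regions, so the low share there was part of the derivation and only the even-ranked members and the strong autosomal regions were outside it. The limit of 1 mismatch was also set after the data were seen. The share in the even-ranked members depends on that limit, since only the region near Y41G9A.17 (rank 2) among them held an exact copy. With at most 2 mismatches, the limit used for the AT-rich sequence below, the motif was in 6.0% of members and 1.15% of other X regions.

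The motif was concentrated at the top of the ranking. It was present in 12 of the 25 strongest members (48.0%), in 0 of the next 25, in 0 of ranks 51 to 100, in 1 of ranks 101 to 200 and in 1 of ranks 201 to 300. A count of 0 of 25 allows a share of up to 13.7% (exact 95% interval). The member of rank 29, near xol-1, counts as without the motif because its 2 exact sites lie more than 100 bp from its summit. The 8 strongest members all carried it. At least 2 sites were present in 6 members, all among the 25 strongest, and in 0 of the other X regions and 0 of the strong autosomal regions. Of these 6 members, 5 were odd-ranked, in the set used to derive the motif. In the even-ranked members the count was 1 of 150 (0.667%, interval 0.0169 to 3.66). Among the 274 members at no reproducible peak the share was 0.73%, 2 regions, with an interval of 0.0885 to 2.61. The 4.67% of the whole set thus rests on its strongest end.

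**Figure D1:**
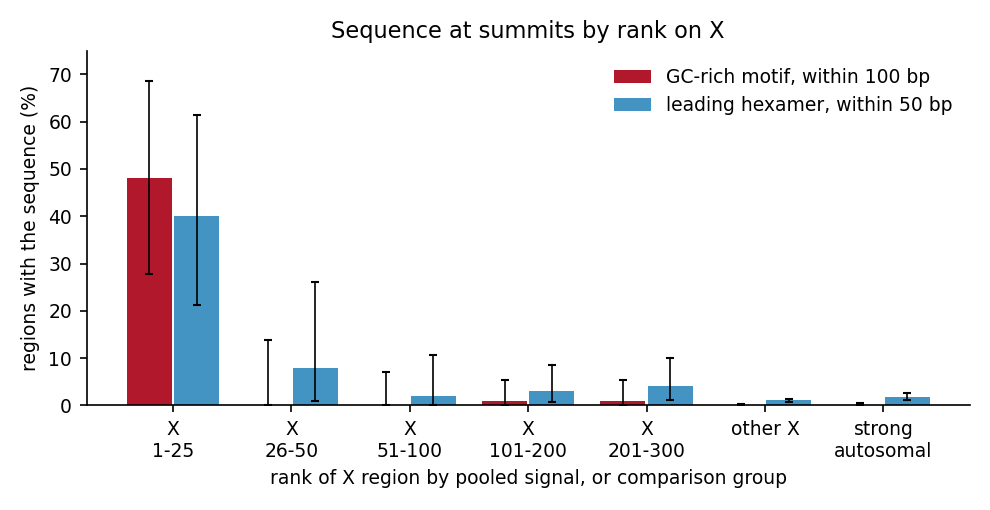
Share of regions (%) with the GC-rich motif within 100 bp of the summit (red) and with the 6-letter word CCTGCG within 50 bp (blue), by rank on X and in the other X and strong autosomal regions. Bars start at 0 and the whiskers are exact 95% intervals over regions. Ranks 1 to 25 reach 48.0% and 40%, and every later group is at 8.0% or below.

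The 14 members with the motif lay near W02H3.3, Y41G9A.17, nspc-17, T27A8.7, F22H10.2, C41A3.2, gtr-1 and fbxb-58 (ranks 1 to 8), F55G7.5 (rank 10), F20B6.9 (rank 11), mom-1 (rank 15), ins-39 (rank 20), R04E5.9 (rank 165) and col-185 (rank 229). fbxb-58 codes for an F-box protein, mom-1 for an enzyme of Wnt ligand secretion, ins-39 for an insulin-like peptide and col-185 for a collagen. Together they held 21 sites, 8 exact and 13 with 1 mismatch, with 9 on the plus strand and 12 on the minus strand. The most frequent substitution, counted from 1 at the 5′ end of TCGCGCAGGGA, was C6A, in 4 of the 21 sites. Next came T1A in 2 sites, and each of 7 other substitutions was seen once. Positions 3, 4, 7, 8 and 9 never varied, within the limit of 1 mismatch.

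The distance from the summit to the centre of a site had a median of 36 bp, and 15 of the 21 sites lay within 50 bp. Sites were counted only within 100 bp of a summit, which caps these distances. The col-185 site lay 1 bp from its summit, while both F20B6.9 sites lay 85 and 60 bp to the left of theirs.

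**Figure D2:**
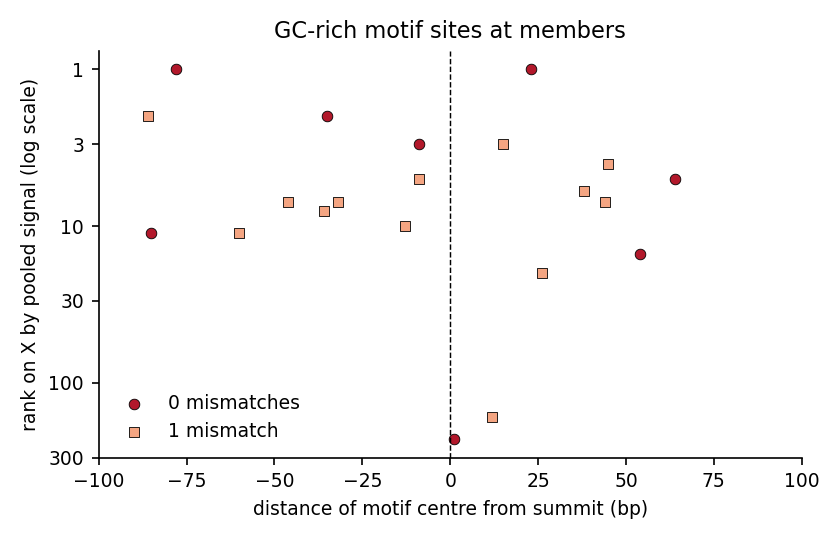
Distance from the summit to the centre of each GC-rich motif site (bp, lower coordinates to the left) against the rank of the member on X (log scale), for the 21 sites in 14 members. Circles are exact matches and squares have 1 mismatch; 19 of the 21 points lie at ranks 1 to 20, on both sides of the summit.

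Read from the genome side, exact copies of the motif were few. X held 13 exact copies, 0.734 per Mb, and the autosomes together held 2, or 0.0242 per Mb. Of the 13 on X, 8 lay inside members, 0 lay in any other X region, and 3 more lay within 100 bp of a member: a site 8 bp beyond the region near Y41G9A.17 and the xol-1 pair, 10 and 43 bp from its region. In all, 11 of the 13 exact copies were in or within 100 bp of 8 members. Of the remaining copies, 1 lay 805 bp from the member of rank 271 near ctbp-1 and the other 37972 bp from the nearest member. Neither of the autosomal copies lay in a pooled region. Since the motif was built from words frequent in odd-ranked members, its copies there and the X density are not independent of the derivation. Of the 8 copies inside members, only that near Y41G9A.17 (rank 2) was in an even-ranked member.

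With 1 mismatch allowed the contrast between chromosomes was smaller. X then held 68 copies (3.84 per Mb) and the autosomes 201 (2.44 per Mb). Of the 68 copies, 21 (30.9%) were in members and 25 (36.8%) in any pooled region, whereas 24 of the 201 autosomal copies (11.9%) were in a pooled region. With 2 mismatches allowed the densities were 60.8 per Mb on X and 65.8 per Mb on the autosomes. A match is a stretch of letters and not a measured binding site.

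The 6-letter word CCTGCG gave a like ordering, but it is not independent of the motif, because every exact site contains it. Among all 2080 6-letter words, counted on both strands, CCTGCG, part of the motif, differed most between the odd-ranked members and the other X regions. Within 50 bp of the summit it was present in 20 members (6.67%, interval 4.12 to 10.1), in 8 of the 150 even-ranked members (5.33%), in 53 other X regions (1.07%) and in 24 strong autosomal regions (1.78%). By rank it was found in 10 of the first 25, 2 of the next 25, 1 of ranks 51 to 100, 3 of ranks 101 to 200 and 4 of ranks 201 to 300. At the 274 members outside reproducible peaks the share was 3.65% (interval 1.76 to 6.61). A second word of the motif, CGCGCA, was as frequent in strong autosomal regions (6.0%) as in the members (7.0%), against 1.71% of other X regions. The word CCCTGC was found in 6.0% of members, 1.25% of other X regions and 1.78% of strong autosomal regions.

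A different 12-letter sequence, TTAAAACTTTTT, extended from the 8-letter word AAAACTTT with the largest difference in share, did not separate the groups. With at most 2 mismatches on either strand within 100 bp it occurred in 22.3% of members, 23.7% of other X regions and 23.0% of strong autosomal regions, and in 17.3% of the even-ranked members. The members with the most sites were those near F46C8.8 (8 sites) and znf-474 (4 sites). Those near otpl-3, pdk-1, dim-1, T01C1.4, gap-1 and ajm-1 had 3 each. The word AAGTCA, the half-site known for receptors of the tailless family, was found within 50 bp of 13 members (4.33%, interval 2.33 to 7.30), 5.49% of other X regions and 3.78% of strong autosomal regions. Those shares did not set the members apart.

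Base composition moved with rank as well. The GC content within 50 bp of the summit had a median of 37.6% in the members, 34.7% in other X regions and 36.6% in strong autosomal regions. By rank the median was 44.6% in the first 25, 40.6% in the next 25, 37.1% in ranks 51 to 100, 37.6% in ranks 101 to 200 and 35.6% in ranks 201 to 300. GC content was thus highest where the GC-rich motif was most frequent, and its part in that share was not tested. Windows with more than 50 of every 100 bases marked as repeats or low complexity in the reference made up 19.3% of members, 22.9% of other X regions and 26.2% of strong autosomal regions.

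The members lay far from gene starts compared with strong autosomal regions. A summit within 500 bp of an annotated protein-coding start was found in 66 members (22.0%, interval 17.4 to 27.1), 21.4% of other X regions and 545 strong autosomal regions (40.4%, interval 37.7 to 43.0). The 23344 weaker autosomal regions stood at 27.8%. The median distance was 1278 bp for members, 1453 bp for other X regions, 746 bp for strong autosomal regions and 1130 bp for weaker autosomal regions. On X the strongest regions and the rest had like shares near starts, while on the autosomes the strong regions had the higher share. Among the 25 strongest members 3 were within 500 bp, those near bet-2, dpy-23 and puf-9, each upstream of its start by 252, 347 and 331 bp. dpy-23 codes for a clathrin adaptor subunit and puf-9 for an RNA-binding protein of the Pumilio family. Messages of many C. elegans genes receive a spliced leader, which hides where transcription begins, so these distances run to annotated starts.

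**Figure D3:**
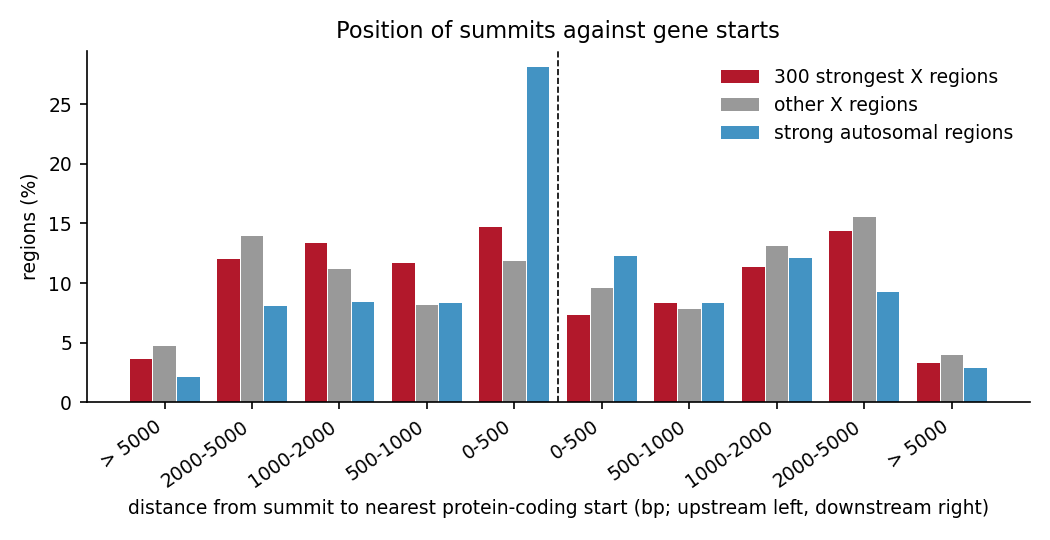
Share of summits (%) by distance and side of the nearest protein-coding start (bp, upstream on the left of the dashed line), for the 300 X members (red), other X regions (grey) and strong autosomal regions (blue). In the bin just upstream of a start stand 14.7% of members, 11.8% of other X regions and 28.1% of strong autosomal regions.

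By annotation, 168 members (56.0%, interval 50.2 to 61.7) had an intergenic summit, against 45.2% of other X regions and 49.6% of strong autosomal regions. Intergenic means outside annotated protein-coding genes throughout, so such a summit can lie in a tRNA gene or another non-coding gene. Introns held 87 members (29.0%), coding exons 23 (7.67%, interval 4.92 to 11.3), 3′ UTRs 15 and 5′ UTRs 7. Coding exons held 17.04% of other X regions and 16.1% of strong autosomal regions, more than of the members. Of the 25 strongest members 20 were intergenic, 3 intronic, 1 in a coding exon (C41A3.2) and 1 in a 3′ UTR (mxl-3, which codes for a Max-like transcription factor).

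Along X the members were spread out. The middle of the chromosome, when it is cut into 3 equal parts, held 99 members (33.0%, interval 27.7 to 38.6) and 32.3% of other X regions. In 10 equal bins along X the number of members ran from 18 in bin 6 to 38 in bin 8. Per 100 X regions the rate was lowest in bin 6, at 3.99 members, and highest in bin 7, at 7.52. The median gap between neighbouring members was 39.6 kb, the largest was 477.8 kb and lay near the left end, and 82 members had another within 10 kb. The 14 members with the GC-rich motif had a median gap of 1212 kb, a smallest gap of 282.1 kb and a largest of 2515 kb, and so few points must lie farther apart than 300. They fell in every bin except bin 6.

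**Figure D4:**
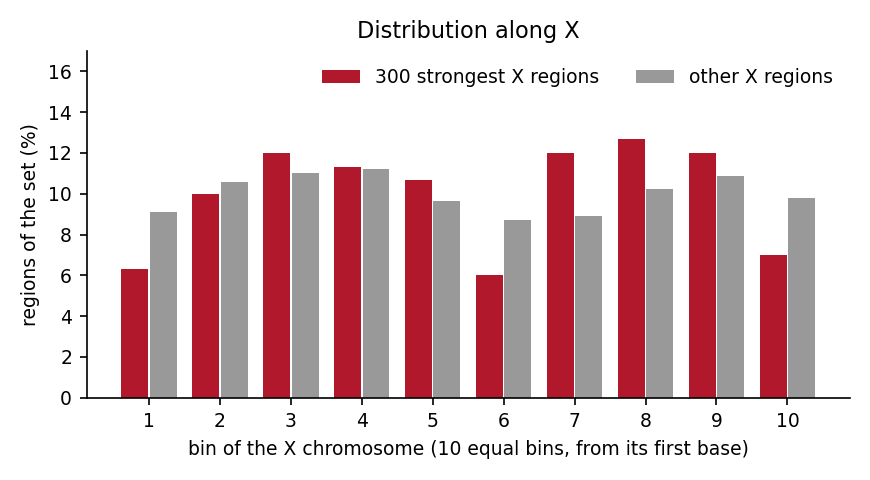
Share of regions (%) in each of 10 equal bins of the X chromosome, counted from its first base, for the 300 members (red) and the other X regions (grey). Members range from 6.0% in bin 6 to 12.7% in bin 8, and other X regions from 8.70% to 11.2%.

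The X share of nuclear regions was highest at the top of the whole ranking. Of the 50 strongest, 21 were on X (42%, interval 28.2 to 56.8), of the 100 strongest 25, of the 200 strongest 40 and of the 1000 strongest 174 (17.4%, interval 15.1 to 19.9). X makes up 17.7% of the nuclear genome and 17.6% of all nuclear regions in the list. In the strongest 50 regions of each replicate alone, X held 19 in replicate 1 and 16 in replicate 2.

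The replicates held the members unequally. Since the pooled list contains the reads of both replicates, this overlap is not independent of the selection and is given as a description. Replicate 1, with 30000 regions, had an overlapping region for 277 members (92.3%), and replicate 2, with 19385 regions, for 136 (45.3%). Both had one for 120 members (40%, interval 34.4 to 45.8), against 11.5% of other X regions and 47.9% of strong autosomal regions, and 7 members had none. The share in both fell from 25 of 25 in the first ranks to 14 of 25, 21 of 50, 27 of 100 and 33 of 100 in the later groups. The median rank of the overlapping region was 851 in replicate 1 and 2293.5 in replicate 2.

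Of the motif members, 12 were among the 25 strongest by pooled signal, so high ranks in the replicates partly follow from the selection. These 12 ranked between 27 and 89 in replicate 1 and between 25 and 200 in replicate 2. The other 13 of that group ranked between 49 and 837 in replicate 1 and between 32 and 12658 in replicate 2, where T24D8.6 (12658), ldb-1 (5853) and mxl-3 (1669) stood lowest. ldb-1 codes for a LIM domain-binding protein. R04E5.9 had no region in replicate 2 and ranked 426 in replicate 1, and col-185 had none in replicate 1 and ranked 181 in replicate 2. The member near xol-1 ranked 174 in the pooled list and overlapped no reproducible peak, while the regions overlapping it ranked 51 in replicate 1 and 31 in replicate 2. All these replicate ranks are those of the strongest overlapping region, which may share as little as 1 bp with the member.

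**Figure D5:**
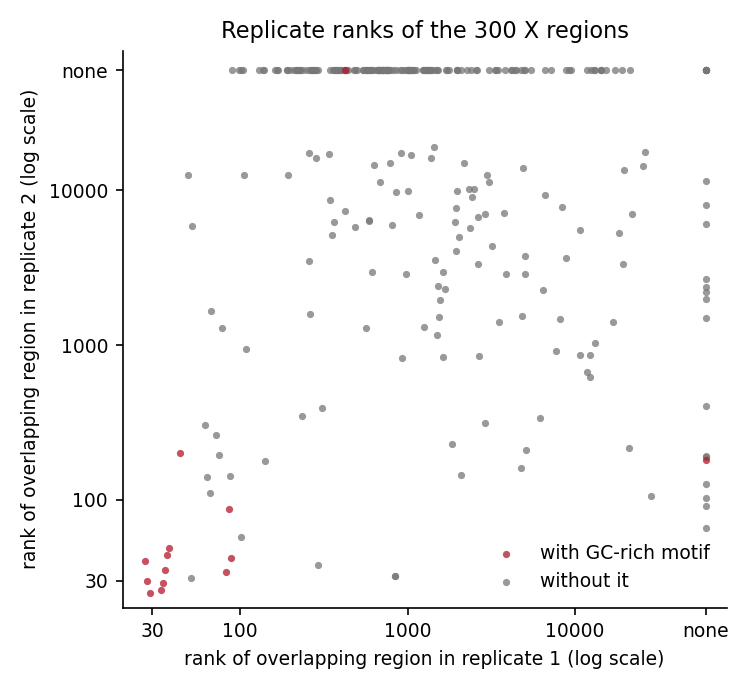
Rank of the region that overlaps each of the 300 members in replicate 1 and in replicate 2 (both axes on a log scale; "none" marks members with no overlapping region). Members with the GC-rich motif are red; 12 of the 14 lie at rank 89 or better in replicate 1 and 200 or better in replicate 2, while grey points spread over the whole range.

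Taken alone, the 300 strongest X regions of replicate 1 and those of replicate 2 shared 34 regions, 11.3% of each set. Of the members, 183 overlapped the set of replicate 1, 63 that of replicate 2, 34 both and 88 neither. The GC-rich motif was present in 12 of the 34 members in both sets (35.3%, interval 19.8 to 53.5), in 1 of 149 in the set of replicate 1 only, in 1 of 29 in that of replicate 2 only and in 0 of 88 in neither. In each replicate's own set 13 regions held the motif (4.33%), against 0.0201% of the other X regions in replicate 1 and 0.153% in replicate 2. The motif was derived from the pooled ranking of these same replicates, so these shares are not independent of the derivation.

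The single strongest regions had these values. The W02H3.3 region (chrX:11094079-11094334) had a signal of 90.83 and ranked 29 in replicate 1 and 25 in replicate 2. The Y41G9A.17 region (chrX:2997034-2997289), in an intron, had a signal of 87.62 and ranked 28 and 30. The nspc-17 region (chrX:14525785-14526040) had a signal of 72.73 and ranked 27 and 40. These regions are intergenic or intronic and lie 3979, 2590 and 732 bp from the nearest coding start. T27A8.7 followed at 71.14, F22H10.2 at 67.49, C41A3.2 at 62.22, gtr-1 at 58.16 and fbxb-58 at 57.94. T24D8.6, the first member without the motif at the limit of 1 mismatch, had a signal of 43.87. F55G7.5 and F20B6.9, which carry the motif, had 43.44 and 43.15. The first 25 end at K02D3.1 with a signal of 30.53. They also include F19H6.5, C30E1.4, ZK899.6, M02F4.2 and ftt-2, which codes for a 14-3-3 protein.

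At the lower end of the 300 the signal changed by little. The last members were those near clc-2 (14.651), egl-6 (14.636), lgc-24 (14.633), pqn-62 (14.628) and osm-11 (14.628). Just outside lay the regions near pqn-36 (14.622), F55A4.13 (14.614), fis-2 (14.602), ergi-3 (14.589) and F09B9.5 (14.579). clc-2 codes for a claudin-like protein, egl-6 for a neuropeptide receptor that inhibits egg laying and osm-11 for a secreted ligand of Notch signalling. The cut at 300 thus passes through regions of nearly equal signal.

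The members named 275 different nearest coding genes, and 17 genes had more than 1 member. ftt-2 had 4 members, with signals of 31.77, 17.08, 16.61 and 15.86, all intergenic and upstream of its start by 568 to 4526 bp. The members with signals of 31.77 and 16.61 overlap each other, and the weaker of them is the only member below rank 25 at a reproducible peak. ZK470.2 also had 4 members, 3 of them intronic. lin-14, a transcription factor of larval timing, had 3, with signals of 24.99, 15.21 and 15.19, the first in a coding exon and the others in introns. nhr-3, mrp-5 and T06F4.1 had 3 each.

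Members near genes of chosen families were few. Genes of dosage compensation and sex determination were nearest to 1 member (0.333%), xol-1, whose start lies 4732 bp away, and to 0.301% of other X regions. Nuclear receptors were nearest to 8 members (2.67%, other X regions 1.99%), among them 3 near nhr-3 and 2 near daf-12, the receptor for dafachronic acids that controls dauer formation. The others were near nhr-1, nhr-137 and nhr-255. Neuropeptide genes were nearest to 5 members (1.67% against 1.15%), namely ins-39, flp-28, flp-19, nlp-61 and flp-12. Ion channel genes were nearest to 7 (2.33% against 2.59%), among them the innexin gene unc-9 and the calcium channel gene unc-2. Homeobox genes were nearest to 2 (ttx-3 and ceh-40, 0.667% against 0.683%) and collagens to 3 (col-167, dpy-8 and col-185, 1.0% against 0.804%). The members' shares differed from those of other X regions by less than 1 percentage point in each of these families.

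The share at tRNA genes differed more. With starts of all genes except piRNA genes counted, a tRNA gene had the nearest start for 25 members (8.33%, interval 5.47 to 12.1), 2.69% of other X regions and 2.0% of strong autosomal regions. In 21 members (7.0%, interval 4.39 to 10.5) that start lay within 100 bp of the summit, against 1.23% of other X regions and 1.26% of strong autosomal regions. X holds 276 annotated tRNA genes. The number on the autosomes was not set beside it, so only the other X regions share this background. The 21 members included 10 with an intronic summit, beside 29.0% of all members, and 0 of the 21 held the GC-rich motif, which 4.67% of all members held. Of these 21, 10 had a region in both replicate lists, beside 40% of all members. MicroRNA genes were nearest to 5 members (1.67% against 1.05% of other X regions) and snRNA or snoRNA genes to 2 (0.667% against 0.422%).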

How the data were processed

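ChIP-seq regions from 2 biological replicates of eGFP-tagged nhr-67 in L3 larvae were analysed as deposited. The authors deposited, for ce10 and ce11, region lists for each replicate, for both replicates combined, and for reproducible (IDR) peaks, per the deposited records. The signal value of each region (the seventh column of the deposited lists, taken as the caller's signal) is the authors' own, and its scale differs between lists, so it was used only to rank regions within a list. For the aligner and the peak caller, names and versions were not given in the sources used here.

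Members are the first 300 X regions of the pooled ce11 list by signal. Members, lists and comparisons were chosen with earlier results of these data known, and no hypothesis test was made. Summits were compared with Ensembl 115 starts and the RefSeq WBcel235 sequence. Regions overlap where they share at least 1 bp. GC content and 6-letter words were counted within 50 bp of the summit and motifs within 100 bp. Words were ranked on odd-ranked members and read in even-ranked ones. The AT-rich sequence came from the planned rule, and the GC-rich motif was added after the data were seen. The word search was checked on simulated windows of independently drawn bases, where the planted word came first in 10 of 10 runs. It was planted in more windows than held any word of the GC-rich motif among odd-ranked members. Recovery of words as rare as those, or in real genomic sequence, was therefore not checked. Named genes are the nearest coding genes of the 25 strongest members, of 5 members inside and 5 regions outside the limit, of the 5 members with most sites of the planned motif, and of members nearest to listed genes (at most 20, by signal). Others were named after their values were seen, among them the motif members below rank 25, genes with several members, ctbp-1, and list genes past the first 20. Python 3.11.15, pandas 2.3.3, numpy 2.4.6, scipy 1.17.1 and matplotlib 3.10.9 were used. No read counts are in the files, so the depth per sample and its effect on precision are unknown.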

Additional observations from a re-analysis of the deposited data

How the results depend on the processing

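The shares near starts, of the motifs, of CCTGCG, in both replicates and in the middle of X, the median distance and the median GC content were recomputed with the 150 and the 600 strongest X regions and without members at reproducible peaks. All of these except the share in both replicates were also recomputed in each replicate alone, and some with other distances. The X share of the strongest regions was recomputed on ce10, with other list sizes and in each replicate. Shares by annotation, of AAGTCA, at tRNA genes and at gene families were not recomputed. Values were judged against their own 95% intervals. The share near starts became 42% within 1000 bp and 41.0% with starts of all genes except piRNA genes. Both settings can only raise the share. The other groups were not set beside it there, so these values do not compare with their shares within 500 bp. The AT-rich sequence fell to 3.67% at 1 mismatch and 13% within 50 bp. CCTGCG stood at 4.0% with 600 regions and 3.65% outside reproducible peaks. The GC-rich motif, whose alternatives were all chosen after the data were seen, stood at 8.0% with 150 regions, 2.33% with 600 and 0.73% outside reproducible peaks. The share of members in both replicates was 49.3% with 150 regions, 33.5% with 600, 34.3% outside reproducible peaks, 26.3% with replicate summits within 100 bp and 18.7% with the strongest 5000 regions of each replicate. The median GC content was 34.65% to 37.62% in 1 replicate alone, lowest without replicate 1, and the X share of the 1000 strongest was 19.2% to 19.9%. The causes were not tested. The median distance to starts and the share in the middle of X stayed within their intervals under all 5 alternatives run for each. No paired analysis was possible because there is 1 group. Depth is unknown, intervals cover counting error over regions only, and neighbouring regions can share reads. Fragments of 150 to 350 bp limit how closely a summit can be placed.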
